A study of Mus musculus with 6 samples.

Results

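The genes described here code for 6 neuronal nicotinic acetylcholine receptor subunits, Chrna3, Chrna4, Chrna5, Chrna7, Chrnb2 and Chrnb4. The members are the probe sets that the platform annotation gives to exactly 1 gene, that gene being 1 of the 6, and every such probe set is reported: 15 of the 34945 probe sets with 1 gene on the array, and 6 of 18193 genes. The subunits were selected on results of this comparison, the difference between Neurod1 knockout and wildtype glands in earlier readings of these arrays. That difference is therefore given as a description, and no p-value is given for a subunit. Each SE is limma's, which combines the spread between pools for that probe set with the spread of all probe sets in the fit. Nothing is inferred from an SE about the group. RNA came from pineal glands of newborn mice at postnatal day 0, collected by day from animals kept in light for 12 h and in the dark for 12 h. The 3 wildtype pools were from 129 mice and the 3 knockout pools from homozygous NeuroD1 transgenic knockout mice, with 3 glands in each pool. Which stretch of Neurod1 was removed, in which cells, and on which strain background is not told by the labels. Neurod1 codes for a transcription factor of the basic helix-loop-helix family that acts in neurons and endocrine cells.

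Nicotinic receptors are pentameric channels that open when acetylcholine binds and let sodium and calcium into the cell. Alpha3 and beta4 subunits form the receptor of autonomic ganglia and of the medial habenula, and alpha5 joins such receptors as an accessory subunit that does not form a channel by itself. Alpha4 and beta2 form the most widespread receptor of the brain, and alpha7 forms homomeric channels with high calcium permeability. In the rodent pineal gland an alpha3beta4 receptor has been described in pinealocytes, where acetylcholine depolarizes the cell, opens L-type calcium channels and leads to release of glutamate, which lowers melatonin synthesis.

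Chrna5, Chrna3 and Chrnb4 lie side by side on mouse chromosome 9, whereas Chrna4 is on chromosome 2, Chrnb2 on chromosome 3 and Chrna7 on chromosome 7. In the RefSeq annotation of GRCm38.p6, Chrna5 is read in the opposite direction to the other two and overlaps Chrna3, and the strand that each probe set reads was not checked. The 250 bases before the start sites of the 3 clustered genes are shown because these genes share a locus and because Chrna3 and Chrnb4 had probe sets with lower means in the knockout. The sequences are RefSeq's, 5′ to 3′ on the strand of the gene, and capitals mark every E-box, the sequence CANNTG that basic helix-loop-helix factors bind. The windows are chr9:55026563-55026812 on the minus strand for Chrna3, chr9:55048545-55048794 on the minus strand for Chrnb4, and chr9:54980630-54980879 and chr9:54981238-54981487 on the plus strand for the upstream and downstream starts of Chrna5.
Chrna3: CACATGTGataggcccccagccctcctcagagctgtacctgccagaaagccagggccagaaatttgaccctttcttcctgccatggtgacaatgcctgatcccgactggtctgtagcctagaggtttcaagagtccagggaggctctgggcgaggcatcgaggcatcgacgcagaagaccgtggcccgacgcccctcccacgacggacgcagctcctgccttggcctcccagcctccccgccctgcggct
Chrnb4: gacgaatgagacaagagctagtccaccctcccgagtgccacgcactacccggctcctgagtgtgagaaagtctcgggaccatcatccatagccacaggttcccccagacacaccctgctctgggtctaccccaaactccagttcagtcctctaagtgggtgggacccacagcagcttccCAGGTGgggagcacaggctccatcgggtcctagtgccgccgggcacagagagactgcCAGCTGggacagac
Chrna5 upstream start: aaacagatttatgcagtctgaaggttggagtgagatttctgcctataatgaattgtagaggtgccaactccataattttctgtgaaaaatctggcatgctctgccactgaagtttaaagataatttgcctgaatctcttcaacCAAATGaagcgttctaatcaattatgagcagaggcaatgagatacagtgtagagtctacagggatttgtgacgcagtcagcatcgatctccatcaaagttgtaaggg
Chrna5 downstream start: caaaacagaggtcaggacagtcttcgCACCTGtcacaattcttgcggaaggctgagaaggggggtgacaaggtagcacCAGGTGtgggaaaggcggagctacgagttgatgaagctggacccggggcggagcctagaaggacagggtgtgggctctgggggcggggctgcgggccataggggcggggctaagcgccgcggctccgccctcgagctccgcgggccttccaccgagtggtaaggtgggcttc

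The Chrna3 window held 2 overlapping E-boxes, CACATG and CATGTG, which lie 250 and 248 bases before the start. Chrnb4 held CAGGTG 71 bases and CAGCTG 14 bases before its start. The upstream Chrna5 window had 1 E-box and the downstream window 2. Of the remaining subunits, Chrna7 had 2, Chrnb2 had 1 and Chrna4 had 0. An E-box was found in 66.2% of the 32851 promoter windows of this length, so its presence is common. The form CAGATG, searched with its complement CATCTG, was in 14.4% of all windows and in 0 of the 7 windows of the subunit genes, and CAGCTG was in 13% of all windows and in the Chrnb4 window alone among the 7. The GC-box GGGCGG, searched with its complement CCGCCC, occurred 4 times before the downstream Chrna5 start, 3 times before Chrna4 and 1 time each before Chrna3 and Chrna7. It was found in 32.7% of all windows. A match says only that the letters are there.

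Signals are the authors' scaled array intensities. Differences are on the scale log2(signal + 38.6), where 38.6 is the signal at percentile 20 over the 6 arrays, and they understate the change of dim probe sets. Probe sets entered the fit across the array when their mean over the 6 arrays exceeded 114.983, at percentile 40 of all probe sets. Except in the summed signals of marker lists, signals are compared between pools for 1 probe set at a time, never between probe sets. A summed signal adds the probe set of highest mean of each listed gene, also where it stayed under the filter, so bright genes weigh most. Median signals ran from 132 to 184 over the 6 arrays. Both Neurod1 probe sets were lower in the knockout pools, at 8157 ± 445 (SD, n = 3) in wildtype against 320 ± 248 in knockout for 1426412_at and 8616 ± 959 against 346 ± 204 for 1426413_at (limma, adjusted p = 0.0342 for each). Whether these probes lie inside the deleted part was not examined. They were the 2 probe sets called lower among 22021 tested, 0.00908% of them, and 0 were called higher, 0% of those tested, while 735 had an unadjusted p under 0.05, or 3.34%. Groups did not overlap, with every knockout pool lower, for 1040 probe sets (4.72%) and, with every knockout pool higher, for 1147 (5.21%).

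All 9 pineal marker genes on the array, among them Tph1, Aanat and Crx, had a probe set above the filter. In this list 16 of 17 tested probe sets had a lower mean in the knockout, with a median log2 difference of -0.58. Groups did not overlap for 6 of the 17 on the lower side, beside 4.72% of all tested, and for 0 on the higher side, beside 5.21%. The summed pineal signal ran from 39679 to 54456 in wildtype and from 25964 to 41044 in knockout pools, which overlap. Macrophage markers ran the other way, with 9 of 9 tested probe sets higher on average and summed signals of 7301 to 8866 against 10736 to 13790. Choroid plexus and male germ cell markers set single pools apart. Otx2 was in both the choroid plexus and the pineal list. The summed choroid plexus signal ran from 15795 to 92754 over the wildtype and from 13167 to 111956 over the knockout pools, with wildtype pool 1 and knockout pool 3 lowest, and its median log2 difference of 0.41 became -0.58 without wildtype pool 1 and 1.48 without knockout pool 3. The summed germ cell signal was 40296 in knockout pool 2 and at most 257.7 in the other knockout pools, and 5890 in wildtype pool 2, and its median of 0.97 became -0.89 without knockout pool 2. The median was -0.43 for skeletal muscle markers, or 0.043 without knockout pool 3, and -0.039 for cerebellum and midbrain markers, or 0.089 without wildtype pool 3. The summed cerebellum and midbrain signal, in contrast to that median, was higher in the knockout pool of every pool number. It ran from 24061 to 30711 in wildtype and from 30347 to 40940 in knockout pools, which overlap. The part of these markers in the subunit values was not tested. Because whole glands were pooled, fewer cells of a type and less RNA per cell cannot be told apart in any value below.

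Of the 15 subunit probe sets, 9 passed the filter, from 5 genes, and both Chrna5 probe sets stayed under it. Chrna3 1444368_at, among the 9, passed only through wildtype pools, since every knockout pool was under the filter. Among those 9, 5 had a lower and 4 a higher mean in knockout, and the median log2 difference was -0.044 beside 0.010 over all 22021 tested probe sets, of which 48.9% were lower. In 2 of the 9 every knockout pool was below every wildtype pool, beside 4.72% of all tested probe sets. In 0 of the 9 every knockout pool was above, beside 5.21%. Of the subunit probe sets under the filter, 1, of Chrna7, had every knockout pool above every wildtype pool, and 0 had every knockout pool below. Within pool numbers 1, 2 and 3 the median of the 9 was -0.031, -0.067 and -0.42, beside 0.068, 0.0031 and -0.070 over all tested probe sets. Nothing is read from these values, since the same contrast was used to select the genes.

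**Figure D1:**
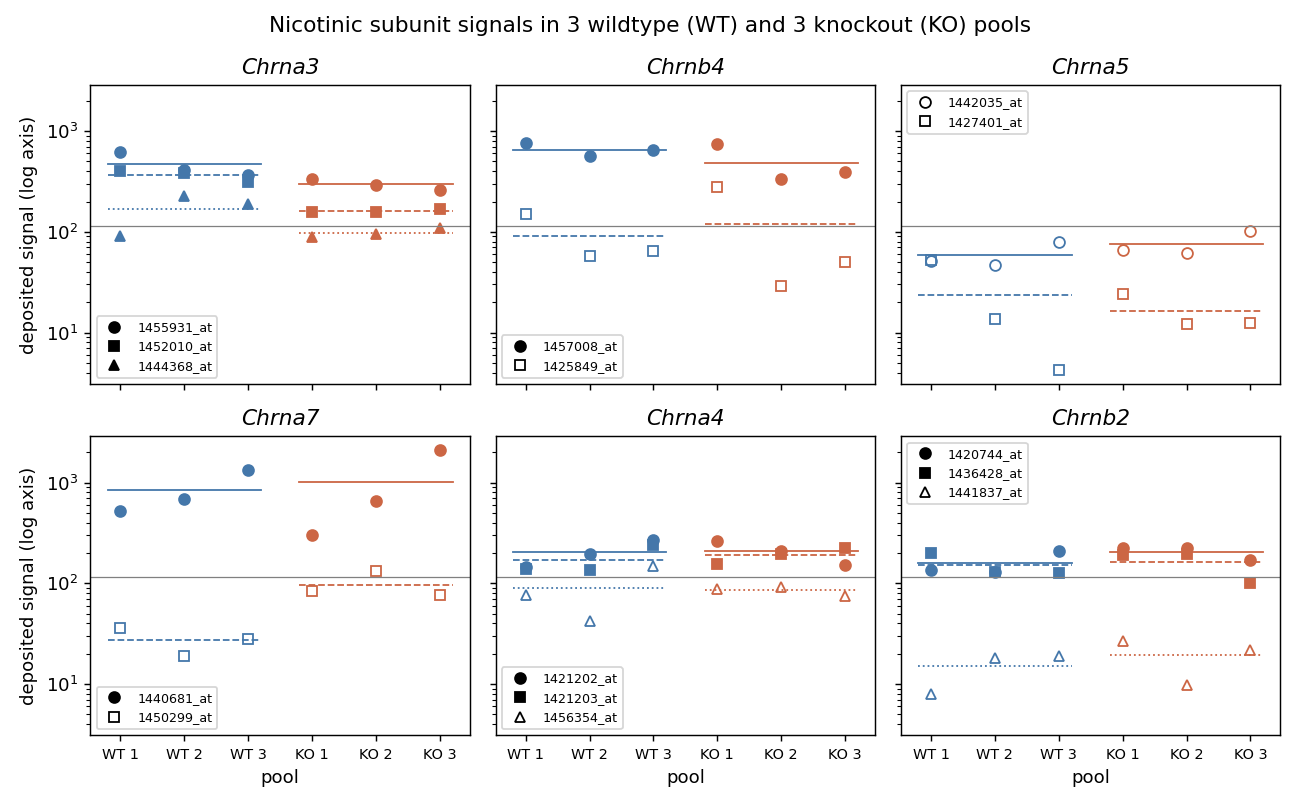
Deposited signal (log axis) of every subunit probe set in each wildtype (blue) and knockout (orange) pool, with a symbol per probe set, open where it stayed under the filter, horizontal lines at group means and a grey line at the filter of 114.983. The 1452010_at signals of Chrna3 were 312.5 to 398 in wildtype and 157 to 169 in knockout, while 1440681_at of Chrna7 varied with the pool number in both groups.

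Chrna3, which carries the acetylcholine-binding face of the ganglionic receptor, had the lowest knockout values relative to wildtype among the tested subunit probe sets. Its probe set 1452010_at gave 398, 383 and 312.5 in wildtype pools 1 to 3 and 157, 157 and 169 in the knockout pools. All 3 knockout signals were below all 3 wildtype signals and lay close to each other. The means were 365 ± 45.6 (SD, n = 3) and 161 ± 7.10, so the knockout was at 44.2% of wildtype, a log2 difference of -1.01 (SE 0.25). Within the pool numbers, which pair a wildtype with a knockout pool, the differences were -1.16, -1.11 and -0.76.

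The second Chrna3 probe set, 1455931_at, read 626, 412 and 364 in wildtype and 334.5, 293 and 262 in knockout. The groups again did not overlap, although the gap between wildtype pool 3 and knockout pool 1 was small beside the spread within wildtype. Its means were 467.5 ± 140 and 296 ± 36.5, with the knockout at 63.4% of wildtype and a log2 difference of -0.57 (SE 0.28). By pool number the differences were -0.83, -0.44 and -0.42, all of 1 sign. Without wildtype pool 1, the highest of its group, the difference was -0.35.

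For Chrna3 1444368_at the wildtype signals were 90, 226 and 188 and the knockout signals 88.8, 95.7 and 109. Wildtype pool 1 lay among the knockout pools, so the groups overlapped. The means were 168 ± 70.3 and 97.7 ± 10.1, a log2 difference of -0.54 (SE 0.39), and pool number 1 showed almost none of it, at -0.01 against -0.98 and -0.62 in numbers 2 and 3. It was -0.85 without wildtype pool 1 and -0.33 without wildtype pool 2. Every knockout pool was under the filter of 114.983, so this probe set was tested only because wildtype pools 2 and 3 were high. Each of the Chrna3 probe sets had a lower mean in knockout, with log2 differences from -1.01 to -0.54.

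Chrnb4, the partner subunit of alpha3, had 1 probe set above the filter. That probe set, 1457008_at, read 759, 562 and 646 in wildtype and 742, 331 and 391 in knockout. Knockout pools 2 and 3 were below every wildtype pool, while knockout pool 1 was as high as the wildtype pools, so the groups overlapped. The means were 655.5 ± 98.9 and 488 ± 222, a log2 difference of -0.47 (SE 0.33). It was -0.03, -0.70 and -0.67 within pool numbers 1, 2 and 3, and it was -0.79 with knockout pool 1 left out but -0.25 with knockout pool 2 left out.

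The other Chrnb4 probe set, 1425849_at, stayed under the filter, with 151, 57 and 64.6 in wildtype and 281, 28.9 and 50.4 in knockout. Here too pool 1 was the highest of its group in both genotypes. The log2 difference was 0.01 (SE 0.59), with 0.75, -0.50 and -0.21 in the pool numbers.

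Chrna5, the accessory subunit of the same cluster, was dim in every pool. Probe set 1442035_at read 51.5, 47 and 79.6 in wildtype and 66, 61.9 and 101 in knockout, a log2 difference of 0.23 (SE 0.33) in the fit with no filter. Probe set 1427401_at read 52.4, 13.7 and 4.2 in wildtype and 24.3, 12.1 and 12.5 in knockout, with a difference of -0.11 (SE 0.31). The groups overlapped for both. At signals near the offset of 38.6 the log2 scale compresses differences, so Chrna5 was measured less well here than its 2 neighbours.

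**Figure D2:**
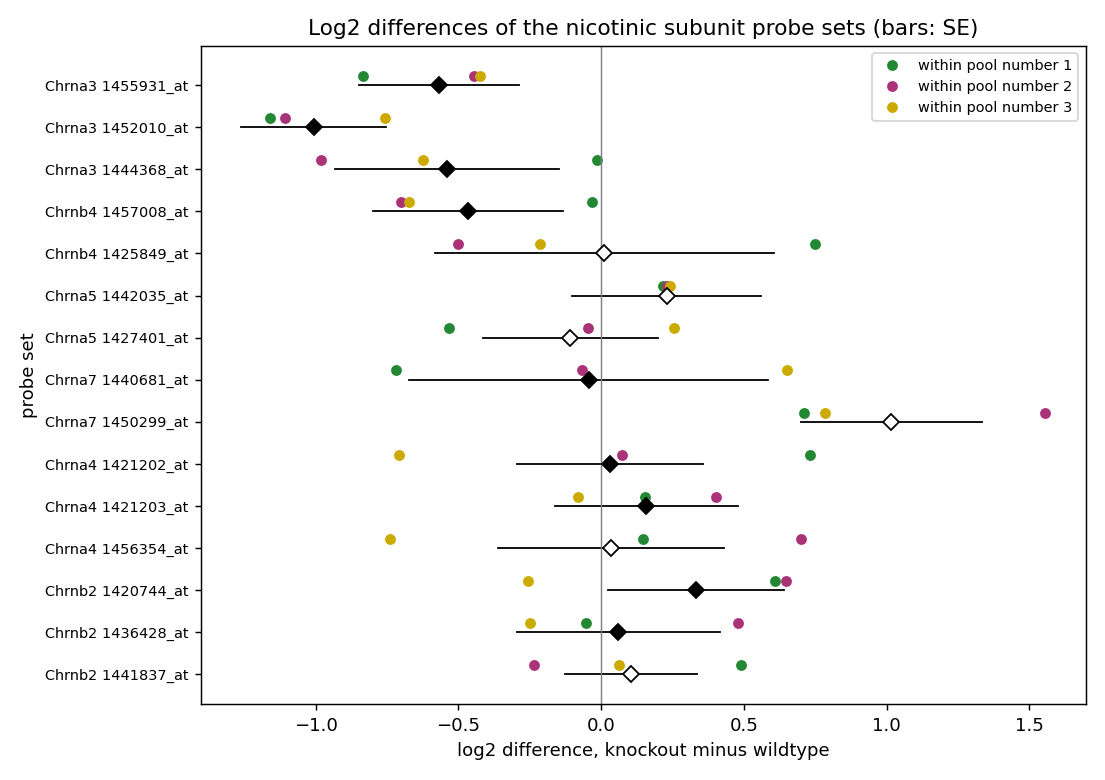
Log2 difference, knockout minus wildtype, for each of the 15 subunit probe sets (diamonds, open where under the filter) with bars of 1 SE from limma to each side, and the difference within each pool number (coloured points). All pool numbers lie below 0 for the 3 Chrna3 probe sets, and those of Chrna7 1440681_at run from -0.72 to 0.65.

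Chrna7, the subunit of the alpha7 receptor, had 2 probe sets, of which 1 passed the filter. That probe set, 1440681_at, read 520, 694 and 1328 in wildtype and 301, 660 and 2109 in knockout. Pool 3 was highest and pool 1 lowest in both genotypes, and the groups overlapped fully. The log2 difference was -0.04 (SE 0.63, or 0.30 with the pool number as a block), made up of -0.72, -0.07 and 0.65 in the 3 numbers. Leaving out knockout pool 3 gave -0.76 and leaving out knockout pool 1 gave 0.57, so its sign rests on single pools. Summed habenula markers were also highest in pool 3 of each genotype, at 1197 in wildtype and 1727 in knockout, but knockout pool 1, the lowest for Chrna7, stood at 1586. Of the 1727, Pou4f1 1429668_at alone gave 818, against 126 and 144 in knockout pools 1 and 2. For 8 of the 11 genes in the sum no probe set passed the filter. The part of habenula markers in the Chrna7 signal was not tested.

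The second Chrna7 probe set, 1450299_at, was under the filter and read 35.9, 19.1 and 27.8 in wildtype against 83.2, 131 and 75.8 in knockout. Every knockout pool was above every wildtype pool. The means were 27.6 ± 8.40 and 96.7 ± 30.0, a ratio of 3.50 and a log2 difference of 1.02 (SE 0.32), with 0.71, 1.56 and 0.78 in the pool numbers. All wildtype signals lay below the offset of 38.6, so the size depends on the offset, and it ranged from 0.57 to 1.81 over the alternatives. Of the 2 Chrna7 probe sets, this one alone kept the groups apart.

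Chrna4 and Chrnb2, the subunits of the common brain receptor, had wildtype and knockout pools that overlapped on every probe set. Chrna4 1421202_at read 144, 197 and 271 in wildtype and 265, 209.5 and 151 in knockout, a log2 difference of 0.03 (SE 0.33). Chrna4 1421203_at read 137, 136.5 and 237 against 157, 193 and 222, a difference of 0.16 (SE 0.32). The groups overlapped on both.

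The last Chrna4 probe set, 1456354_at, stayed under the filter, with 76.3, 42 and 149.5 in wildtype and 88.6, 92.2 and 74 in knockout and a difference of 0.03 (SE 0.40). Chrnb2 1420744_at read 135, 129 and 209 in wildtype and 226, 224 and 169 in knockout. Knockout pools 1 and 2 were the highest of the 6 and the groups overlapped through pool 3, with a difference of 0.33 (SE 0.31). Chrnb2 1436428_at read 201, 130.2 and 127 in wildtype against 193, 197 and 101 in knockout, a difference of 0.06 (SE 0.36). Chrnb2 1441837_at, under the filter, did not exceed 26.8 in any pool and had a difference of 0.11 (SE 0.23).

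**Figure D3:**
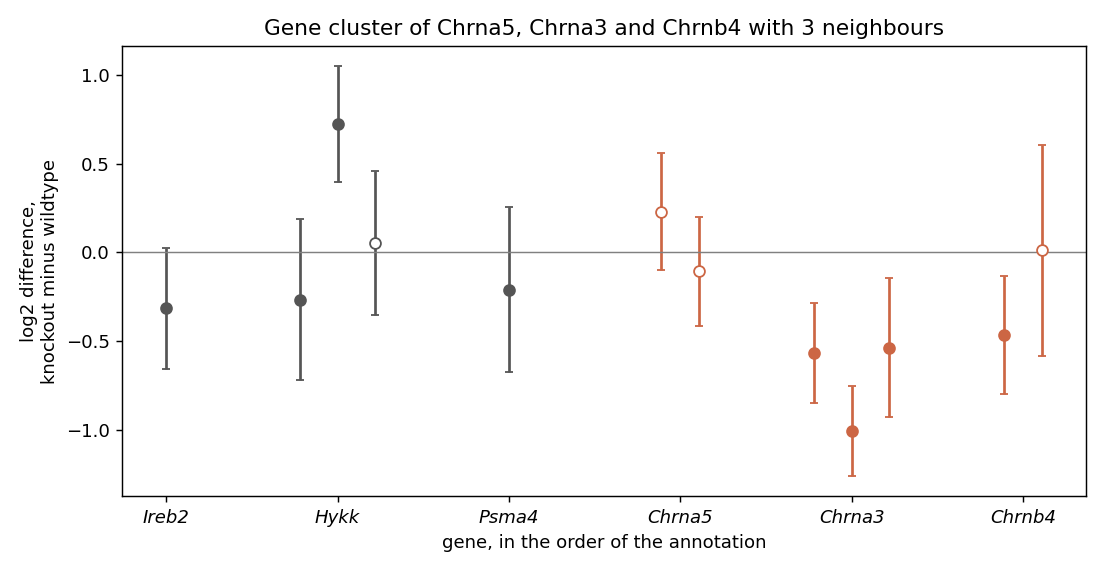
Log2 difference, knockout minus wildtype, with its SE for each probe set of Ireb2, Hykk, Psma4, Chrna5, Chrna3 and Chrnb4, placed in the order of these genes on chromosome 9, not to scale and without the genes between them (open, under the filter). The Chrna3 probe sets and 1457008_at of Chrnb4 lie below 0, and the Chrna5 probe sets lie at 0.23 and -0.11.

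The neighbours read here lie on the Chrna5 side of the cluster, and the brightest probe set of each had a lower mean in knockout. Ube2q2 and Fbxo22, on the Chrnb4 side, were not read. Ireb2, an iron-regulatory RNA-binding protein, had a difference of -0.32 and Psma4, a proteasome subunit, one of -0.21. Of the Hykk probe sets, for hydroxylysine kinase, 1435691_at was at -0.27 and 1447310_at at 0.72, with 151, 209.5 and 275 in wildtype and 538, 324 and 278 in knockout. On the last, every knockout pool was above every wildtype pool, by little in pool 3. Ctsh, for the protease cathepsin H, lies elsewhere on chromosome 9 and had a higher mean on its 2 probe sets. With these the list had 6 tested probe sets, 3 lower and 3 higher, and a median of 0.01. With 1 probe set per gene the median was -0.24.

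The other genes were read from 8 lists around nicotinic signalling, chosen with earlier results of these data known. They held 86 tested probe sets, of which 0 were called in either direction by limma (lowest adjusted p = 0.999) and 4 had an unadjusted p under 0.05, or 4.65% beside 3.34% of all tested. Groups did not overlap for 8 on the lower side, 9.3% beside 4.72% of all tested, and for 4 on the higher side, 4.65% beside 5.21%. Leaving out 1 pool at a time kept the sign of the medians given below for other nicotinic subunits, chaperones, acetylcholine handling and transcription factors. The median ran from -0.053 to 0.26 for the cluster neighbours, from -0.040 to 0.18 for L-type channels, from -0.12 to 0.19 for glutamate and from -0.19 to 0.11 for other cys-loop subunits, so the sign of those 4 medians rests on single pools.

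Other nicotinic subunits, 10 listed genes, had 1 probe set above the filter, of Chrna6, an alpha subunit that pairs with beta2 and beta3 in dopamine neurons and retina. It read 675, 631 and 458 in wildtype and 610.3, 454 and 337 in knockout, a difference of -0.33 with overlap. The muscle-type subunits Chrna1, Chrnb1, Chrnd, Chrne and Chrng all stayed under the filter, as did Chrna2, Chrna9 and Chrnb3.

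Among receptor chaperones and modulators 10 of 16 tested probe sets were lower and 6 higher, with a median of -0.20, and 0 were called. Lypd6, a GPI-anchored protein of the Ly6 family that binds nicotinic receptors, supplied the values farthest below 0. Its probe set 1457843_at read 381, 398 and 431 in wildtype and 139, 196 and 189 in knockout, with no overlap and a difference of -1.06 (SE 0.26). A second Lypd6 probe set, 1454969_at, read 3141, 3228 and 2523 against 3097, 1355 and 1225, a difference of -0.76, and the third, 1456138_at, was at -0.54. As for 1457008_at of Chrnb4, knockout pool 1 alone of its group stayed at the wildtype level on 1454969_at. Ubqln1, a ubiquitin-like protein that holds back unassembled subunits, was at -0.53, and Ywhah, a 14-3-3 protein, was at -0.38, both with overlap. Rer1, a sorting receptor that retains unassembled subunits, was at -0.40 and -0.14 on its 2 probe sets.

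**Figure D4:**
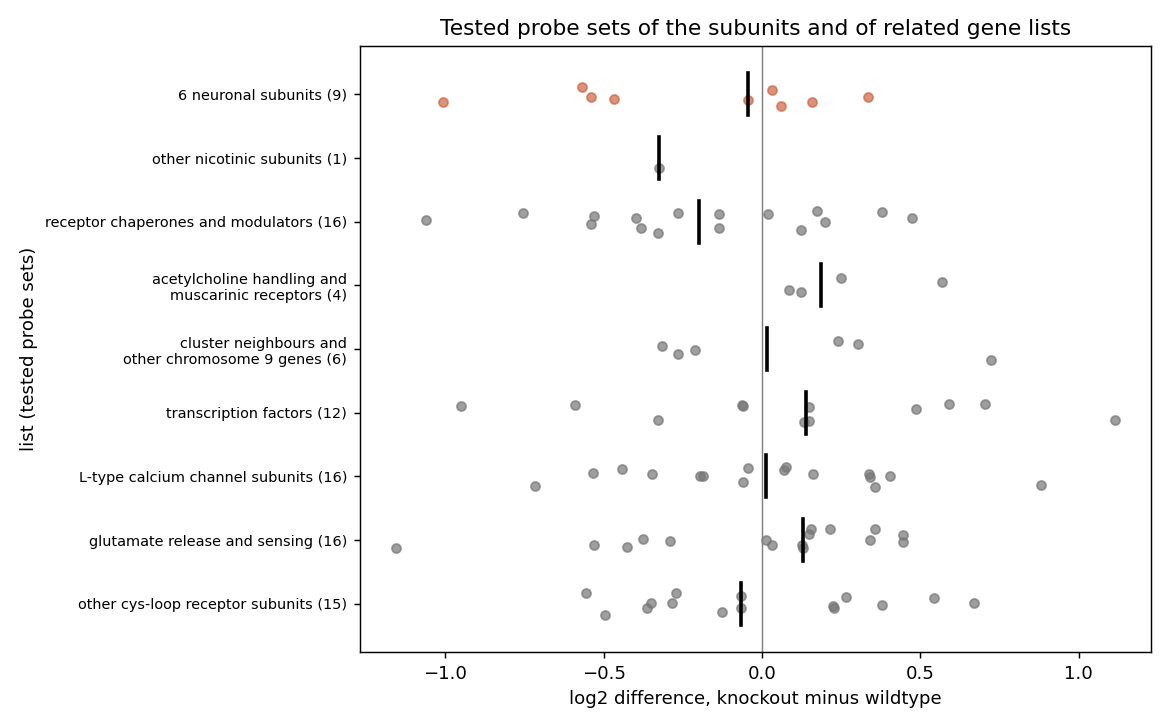
Log2 difference, knockout minus wildtype, of each tested probe set of the 6 subunits (orange) and of 8 related lists (grey), with the number of tested probe sets in brackets and a bar at each median. The subunits' median is -0.044, and the list medians run from -0.33, for a single Chrna6 probe set, to 0.19.

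The acetylcholine side was mostly below the filter. Choline acetyltransferase (Chat), the vesicular transporter Slc18a3, the choline transporter Slc5a7 and acetylcholinesterase (Ache) had no tested probe set. The 4 that were tested, of Bche, Prima1 and the muscarinic receptor Chrm1, all had a higher mean, with a median of 0.19. Prima1, a membrane anchor of acetylcholinesterase, read 77, 165 and 135 in wildtype and 199, 226 and 173 in knockout on 1425304_s_at, which did not overlap (0.57).

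Downstream of the receptor, the L-type calcium channel list had 8 lower and 8 higher of 16 tested probe sets and a median of 0.01. Cacna1c 1435730_at, a pore subunit, read 456, 559.8 and 406 in wildtype and 555, 1253 and 1033 in knockout, a difference of 0.88 with overlap. Its other tested probe set was at 0.16. Cacna2d1 1433643_at, an auxiliary subunit, was lower with no overlap, at -0.72, while the other tested Cacna2d1 probe sets lay between -0.53 and -0.04. Cacna1d, a second pore subunit, was at 0.07 and 0.34 on its tested probe sets, and Cacna2d3, a second auxiliary subunit, was at -0.44 with overlap.

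In the glutamate list 5 of 16 tested probe sets were lower and 11 higher, with a median of 0.13. Slc17a6, the vesicular glutamate transporter VGLUT2, read 2457, 4201 and 2979 in wildtype and 1006, 1862 and 1415 in knockout on 1418610_at, with no overlap and a difference of -1.16 (SE 0.35). Its other probe set, 1428379_at, was at -0.29 with overlap. Slc1a2, a glutamate uptake transporter, was at -0.38 with no overlap on 1438194_at. The AMPA receptor subunits Gria2 and Gria3 were at 0.01 to 0.15 and at 0.16 and 0.36 on their tested probe sets, all with overlap. Named after their values were seen, the 2 tested probe sets with every knockout pool higher were those of the metabotropic receptor Grm3 (0.45) and of the AMPA receptor subunit Gria4 (0.45), and 1 tested probe set of Gria1 was lower with no overlap (-0.43).

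Of the other cys-loop receptor subunits 9 of 15 tested probe sets were lower and 6 higher, with a median of -0.07. Glrb, the beta subunit of the glycine receptor, was lower with no overlap on both of its tested probe sets, at -0.56 and -0.35. The GABA-A receptor subunit Gabrb2 ranged from -0.50 to 0.54 over its tested probe sets, 1 of which, 1429685_at at -0.50, had no overlap. Gabrb1 was at -0.07 and 0.38 and the serotonin-gated channel subunit Htr3a at 0.23, all with overlap.

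Transcription factors linked to nicotinic genes had 5 lower and 7 higher of 12 tested probe sets, a median of 0.14. Sp1, a zinc finger factor that binds GC-boxes, was at 0.15 on 1418180_at, with pools between 3835 and 18310 in knockout and between 5821 and 11501 in wildtype, and at -0.06 and 0.48 on its other probe sets. Sp3, a related factor, was at -0.95, where knockout pool 1 read 313 and the other knockout pools 2835 and 3441 against 2658 to 3288 in wildtype. Jun, a subunit of AP-1, was at 0.13 and -0.59. Gata2 was at 0.59 and 0.70 on its 2 probe sets. All of these overlapped. Phox2a, Hand2 and Gata3, factors of autonomic neurons, stayed under the filter.

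Markers of other tissue rich in these receptors were followed beside the subunits. Of the 14 habenula probe sets 3 passed the filter, with a median of 0.30, which was -0.020 without wildtype pool 1 and -0.14 without knockout pool 1, and summed signals of 700.6 to 1197 in wildtype and 743.5 to 1727 in knockout, and Gpr151, Chat and Tac2 had no tested probe set. Sympathetic ganglion markers had 7 tested probe sets, a median of 0.039, which ran from -0.10 to 0.082 when 1 pool was left out, and sums of 1041 to 1442 against 1449 to 1504. Both sums were higher in the knockout pool of every pool number, whereas the pineal sum was lower in every one. The macrophage sum and the cerebellum and midbrain sum were also higher in every one. A higher sum was therefore not particular to the habenula and ganglion lists. The habenula sum was higher by little in pool number 2, at 743.5 against 734.5. Its 1727 in knockout pool 3 includes 818 from 1 probe set of Pou4f1. The part of any of these markers in the Chrna3 and Chrnb4 values was not tested.

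As a description of shape, the genes whose log2 signals ran most like each subunit over the 6 arrays were listed. For Chrna3 1455931_at they were Elavl4, an RNA-binding protein of neurons (Pearson r 0.987), Ngrn (0.987) and Ints4 (0.983). Chrnb4 1457008_at ran most like Ppfia2, a liprin of the presynaptic scaffold (0.993), Ccdc66 (0.991) and Trim68 (0.991). Chrna4 1421202_at ran most like the cannabinoid receptor Cnr1 (0.995), Tlr2 (0.994) and Rnf207 (0.988). For Chrnb2 1420744_at the genes were Slc2a12 (0.996), 8430426J06Rik (0.985) and Zbtb5 (0.982), and for Chrna7 1440681_at they were Cav2 (0.998), Kif16b (0.997) and Malt1 (0.996). Over 12821 genes with 1 probe set each, the highest such r with any other gene had a median of 0.994 and a 5th percentile of 0.981, so values of this size are the rule with 6 arrays that also share the 2 genotypes.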

How the data were processed

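Total RNA from the pooled glands went through 1 round of amplification before biotin labelling and Affymetrix hybridization, per the labels' protocols, which can compress or distort ratios. The authors deposited 1 intensity for each probe set and array, made with GCOS per the submitters' processing notes. The deposited intensities are linear, and their 2% trimmed means lie between 499.5 and 500.0 on the 6 arrays. Of 45037 probe sets, 34945 had 1 gene in the platform annotation, 932 several and 9160 none. Those with 1 gene and a mean above 114.983 (22021) were fitted with limma 3.58.1 in R 4.3.3 on log2 of the deposited signal plus 38.6, with a mean-variance trend and Benjamini-Hochberg adjustment over all of them, after the code was tested on simulated data. Detection calls were not used here. The number of arrays, with 4 residual degrees of freedom, limits the precision.

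Members and lists were chosen with earlier results of these data known. Other genes were named by rule: up to 4 per list of highest mean signal, any listed gene called, and the 3 genes most like each subunit. Listed genes that stayed under the filter, single markers, Grm3, Gria1 and Gria4 are named outside this rule, after their values were seen. Lists covered other nicotinic subunits, chaperones, acetylcholine handling, cluster neighbours, transcription factors, calcium channels, glutamate and cys-loop receptors, and markers of pineal gland, habenula, sympathetic ganglion, cerebellum and midbrain, choroid plexus, macrophages, muscle and male germ cells. Same-numbered pools share a date in the labels, so the numbers pair the pools, and their deviations from the group means correlated at 0.33, 0.27 and 0.38. Every pair with different numbers had a value below 0. Deviations from a mean of 3 pools sum to 0, so those values add no separate support for the pairing.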

Additional observations from a re-analysis of the deposited data

How the results depend on the processing

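With the pool number as a replicate block the count called was 2, as in the unblocked fit, and no call changed for any subunit or listed gene. Leaving out 1 pool at a time gave 0 to 2 called: 0 without any 1 wildtype pool or without knockout pool 2, and 1 without knockout pool 1. It was 0 with no offset, 1 with 1 probe set per gene, 1 without both pools numbered 1, 0 without those numbered 2 and 0 without those numbered 3. With array weights 3279 were called, 1599 of them lower, along with 20 probe sets of the lists and 3 of the subunits, which were 1452010_at and 1444368_at of Chrna3 and 1457008_at of Chrnb4. Those weights were 7.40 for wildtype pool 2 and 4.71 for knockout pool 2 against 0.224 to 0.547 for the other pools, so that fit rests on pool number 2. For the weights limma reported that its convergence tolerance was not achievable. Nothing is read from the subunit count of that fit, which comes from the contrast that selected the subunits. The median over the subunit probe sets moved from -0.044 to between -0.36 and -0.034 when 1 pool was left out, to -0.32 without both pools numbered 1 and to -0.37 without those numbered 3. It was 0.03 with no filter and 0.01 with array weights. Chrna3 1452010_at stayed between -1.17 and -0.80 over 17 alternatives. The 3 Chrna3 probe sets and 1457008_at of Chrnb4 kept a difference below 0 in all 17. The differences of 1421203_at of Chrna4, 1442035_at of Chrna5, 1450299_at of Chrna7 and 1420744_at of Chrnb2 stayed above 0 in all 17. A kept sign was therefore not particular to the lower probe sets. A fit that leaves 1 group with 2 pools takes their spread with that of the other group.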
